A study of Mus musculus with 208 samples.

Results

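The 40 genes described here are interferon-response and antigen-presentation genes of the mouse, chosen by symbol, that reached a total count above 10 in at least one of 4 brain regions. They are 40 of the 46403 genes in the deposited count tables. By role they comprised 7 signalling and transcription factors (Stat2, Irf1, Irf2, Irf3, Irf7, Irf8 and Irf9), 6 genes of RNA sensing and editing (Ifih1, Ddx58, Dhx58, Trim25, Eif2ak2 and Adar), 12 antiviral effectors (Ifit1, Ifit2, Ifit3, Isg15, Usp18, Mx1, Mx2, Oas1a, Oasl2, Rsad2, Bst2 and Xaf1), 3 guanylate-binding proteins (Gbp2, Gbp3 and Gbp7), 4 PARP and nuclear body genes (Parp9, Parp14, Dtx3l and Sp110) and 8 genes of antigen presentation (B2m, H2-K1, H2-D1, Tap1, Tap2, Psmb8, Psmb9 and Nlrc5). The study asked whether perinatal morphine exposure changes how neurons respond to an immune challenge in adulthood. RNA was sequenced from about 5000 NeuN-positive nuclei per library, NeuN being a nuclear protein of most neurons, sorted from tissue punches taken in adult mice from the hypothalamus, hippocampus, striatum and prefrontal cortex (PFC). Dams of the MOR groups received morphine at 10 mg/kg per day, and their pups received 10 mg/kg per injection, in the morning and again in the afternoon, from postnatal day 1 until the morning of day 14 and were raised by drug-naive foster dams, whereas SAL litters received saline throughout. Adult offspring were then given lipopolysaccharide (LPS), a bacterial cell-wall component, or saline, and tissue was collected 2 h later, which gives 4 conditions named by exposure and then challenge (SAL-SAL, SAL-LPS, MOR-SAL and MOR-LPS). All animals were C57BL/6NTac wild-type mice of both sexes, so no group carries an engineered allele. Since whole litters were exposed, no litter holds animals of both exposures.

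Type I and type II interferons act through receptor-bound kinases and transcription factors, among them STAT2 and IRF9, which take part in binding interferon-stimulated response elements in the promoters of target genes. The targets include sensors of viral RNA, proteins that block viral replication, and the machinery that cuts proteins into peptides and displays them on MHC class I molecules. In the brain, microglia, astrocytes and endothelial cells are the usual strong responders to LPS, and resting neurons express most of these genes at a low level.

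The 40 genes include many with the response element close to their start, and the stretches that carry it are shown for several members whose values are given further on, since it is the sequence feature that interferon targets are known by. RefSeq promoters (build GRCm38.p6, 250 bases before to 50 after each transcription start) were given for 32 of the 40 members, which together had 41 of the 32851 promoters. Mx1, Mx2, Usp18, Dhx58, Parp9, Parp14, Tap2 and Nlrc5 had no entry. The capitals mark the core GAAANNGAA or its reverse complement, with overlapping copies merged, and each line reads along the strand of the gene.
Adar (chr3:89730468-89730489, plus strand): gGAAAAGGAActtcctcacagg
Ifih1 (chr2:62646347-62646379, minus strand): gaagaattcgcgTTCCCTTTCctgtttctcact
Oas1a (chr5:120907526-120907557, minus strand): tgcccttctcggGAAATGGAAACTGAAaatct
Ifit1 (chr19:34640793-34640825, plus strand): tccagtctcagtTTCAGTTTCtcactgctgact
Bst2 (chr8:71537576-71537614, minus strand): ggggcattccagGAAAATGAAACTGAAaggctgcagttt
Gbp2 (chr3:142620593-142620625, plus strand): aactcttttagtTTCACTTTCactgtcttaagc
Gbp3 (chr3:142559988-142560026, plus strand): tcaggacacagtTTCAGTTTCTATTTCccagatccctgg
B2m (chr2:122147536-122147568, plus strand): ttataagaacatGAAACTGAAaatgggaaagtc

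The core was found on either strand in 17 of the 41 member promoters (41.5%) and in 2812 of all 32851 (8.56%). The gamma-activated site, TTCNNNGAA, was found in 10 of the 41 (24.4%) and in 8.3% of all. By role, the core was present in at least 1 promoter of all 5 sensing and editing genes and all 3 guanylate-binding genes with an entry, of 6 of 9 antiviral effectors, of 2 of 7 signalling factors, of 1 of 6 antigen-presentation genes, B2m, and of 0 of 2 PARP and nuclear body genes. The windows of H2-K1 and Xaf1 did not hold these letters. A match describes the sequence only, and no binding was measured.

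The libraries came from 71 animals of 18 litters. The hypothalamus had 51 libraries (14 MOR-LPS, 14 MOR-SAL, 12 SAL-LPS and 11 SAL-SAL), the hippocampus 55 (16, 12, 14 and 13 in the same order), the PFC 48 (16, 12, 10 and 10) and the striatum 54 (18, 8, 15 and 13). The median total count per library was 5543589 for hypothalamus, 9184251 for hippocampus, 9667628.5 for PFC and 10849923.5 for striatum, with a lowest library of 7673 and a highest of 92945090. Under 0.5 of the regional median lay 3, 2, 3 and 0 libraries, respectively. The summed level of Y-linked genes went against the labelled sex in 3, 4, 2 and 0 libraries. In 13, 4, 6 and 9 libraries, the summed level of astrocyte markers (Gfap, Aqp4, Aldh1l1, Slc1a3 and Gja1) exceeded 3 times the regional median. This threshold was set after the data were seen and these libraries are no group of the study, but they were unevenly spread: 23 of 64 MOR-LPS libraries from 8 of 21 animals, 0 of 46 MOR-SAL libraries, 4 of 51 SAL-LPS libraries and 5 of 47 SAL-SAL libraries. MOR-LPS animals 7-1 and 15-3 exceeded it in all 4 regions. The challenge itself was visible: Lcn2, an acute-phase gene induced by LPS, rose in the hypothalamus (log2FC 5.63 ± 1.22 in SAL-LPS vs. SAL-SAL and 6.37 ± 1.00 in MOR-LPS vs. MOR-SAL) and in the striatum (5.64 ± 0.96 and 5.93 ± 1.14). It passed the same test in neither the hippocampus nor the PFC, where it had 7.41 ± 1.66 and 4.58 ± 1.32 (edgeR adjusted p = 0.103 and 0.0835). Of the other genes listed as LPS checks (Nfkbia, Cebpd, Fkbp5, Sgk1 and Tsc22d3), none passed in SAL-LPS vs. SAL-SAL in any region. In MOR-LPS vs. MOR-SAL, Cebpd, Fkbp5, Nfkbia and Sgk1 rose in the hypothalamus and Cebpd and Fkbp5 in the striatum. Because the libraries are sums over many nuclei, fewer nuclei of one type and less RNA per nucleus cannot be told apart in any value that follows.

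All 40 members passed the count filter in the hypothalamus, 37 did in the hippocampus, and 38 did in each of PFC and striatum. B2m, the invariant chain of MHC class I, and Irf8, a transcription factor of microglia and other myeloid cells, were listed at 0 in every hippocampal, PFC and striatal library. The astrocyte gene Gfap, the microglial gene P2ry12 and Xist were also listed at 0 in every library of those regions, so this 0 cannot be read as a lack of transcript. Psmb8, an immunoproteasome subunit, had a total of 10 counts in the hippocampus and was not tested there.

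Most members were scarce in NeuN-positive nuclei, and a few were abundant. Per kilobase of exon, Adar, which edits adenosine in double-stranded RNA, had the highest mean level in the hypothalamus (25.8 normalised CPM per kb), the PFC (17.9) and the striatum (20.6), and Irf2, a repressor of interferon targets, had the highest in the hippocampus (18.6, against 18.3 for Adar). Irf2 lay at 13.6 in the PFC and 15.3 in the striatum but at 4.2 in the hypothalamus. The MHC class I heavy chain H2-D1 stood at 19.4 per kb in the hypothalamus and at 5.86, 4.08 and 3.01 in the hippocampus, PFC and striatum. Stat2 ranged from 3.44 to 6.43 per kb and Irf3, the factor that sensor signalling activates, from 3.28 to 11.2. Regions were counted into separate tables, so these differences between regions were not tested. At the other end, Usp18, which removes ISG15 from proteins and restrains interferon receptor signalling, had a count in 10.4% of PFC libraries, Oas1a, an activator of RNase L, in 6.25%, and Gbp3 in 14.6%. Members with so few counts gain or lose most of their level with single libraries.

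**Figure D1:**
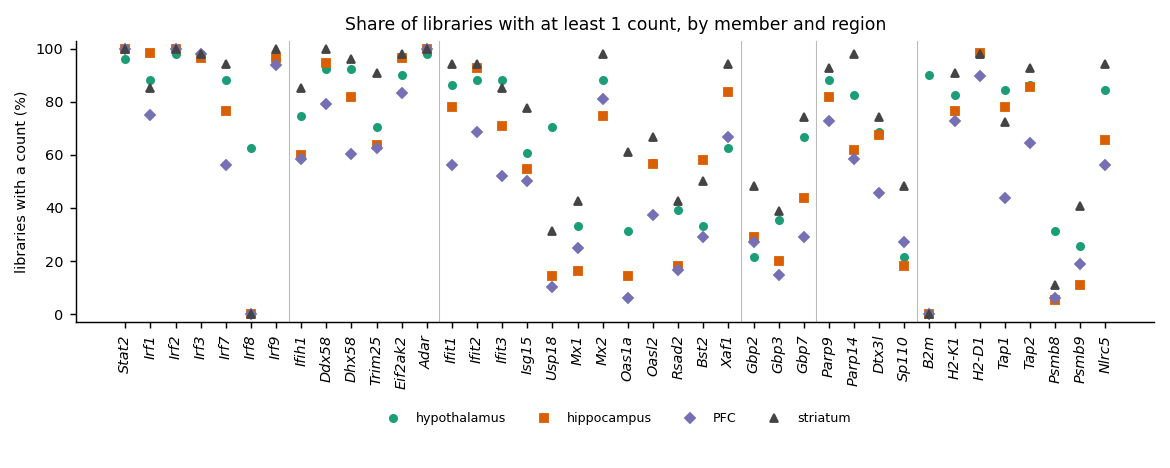
Percentage of libraries with at least 1 count (y) for each of the 40 members (x, grouped by role), with 1 symbol per region. Adar, Stat2 and Irf2 were counted in 96.1% to 100% of libraries in every region, and B2m and Irf8 in none outside the hypothalamus.

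In saline-exposed animals, few of these genes passed the test 2 h after LPS. Adar in the hippocampus was the only one of the 153 member-by-region tests to pass. Its level in normalised CPM ran from 101.8 to 188.2 (median 128.2) in the 13 SAL-SAL libraries and from 143.9 to 227.8 (median 172.6) in the 14 SAL-LPS libraries. The ranges overlap, with the whole group shifted up. Adar rose by a log2FC of 0.49 ± 0.13 (SE; edgeR quasi-likelihood, adjusted p = 0.0286). In the same region it lay between 63.18 and 190.5 (median 143) in MOR-SAL and between 89.04 and 205.5 (median 144.1) in MOR-LPS, a log2FC of −0.004. With the litter as a term the log2FC of Adar in SAL-LPS vs. SAL-SAL was 0.60 (adjusted p = 0.0856), and the call was lost when litter 1, 3, 4, 10 or 11 was left out (0 calls in each). It was kept without the libraries high in astrocyte markers (0.46, adjusted p = 0.0453).

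Across the list, 1 of 37 hippocampal members was called against 2.55% of all genes, 0 of 40 in the hypothalamus against 0.246%, 0 of 38 in the PFC against 0% and 0 of 38 in the striatum against 0.0128%. DESeq2 called 1, 0, 0 and 0 members in the same order, and 188, 128, 71 and 26 of all genes. At an unadjusted p under 0.05 edgeR had 8 members in the hippocampus (7 higher), 5 in the hypothalamus (5 higher), 8 in the PFC (5 higher) and 5 in the striatum (4 higher), where 17.5%, 14%, 12.7% and 11.7% of all genes did, so the counts of 5 are near the background share. The members' median log2FC was 0.34 in the hippocampus (0.42 with members at a count floor set to their bound), 0.43 in the hypothalamus, 0.38 in the PFC (0.39 with bounds) and 0.13 in the striatum, beside medians over all genes of 0, 0.07, −0.01 and 0.01. With the litter as a term the PFC median turned to −0.16 (18 of 38 above 0) and the hippocampal and striatal medians were 0.19 and 0.21. Of the members, 25 of 37, 29 of 40, 21 of 38 and 26 of 38 were positive.

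The uncalled members with the smallest p in this comparison rested on few counts. In the hypothalamus Gbp2, a GTPase that attacks pathogen membranes, had 21 counts in SAL-LPS and 0 in SAL-SAL (at least 4.4-fold higher, adjusted p = 0.11, edgeR), and the inducible proteasome subunit Psmb9 had 28 and 0 (at least 5.86-fold higher, adjusted p = 0.116). Most of these 28 counts came from library 10-4, which is high in astrocyte markers, and without litter 10 its fitted log2FC went from 3.86 to 1.29 (adjusted p = 0.855). Gbp3 had 63 and 1 (ratio 39.6, counting interval 6.85 to 1590, adjusted p = 0.124). For each of these genes 6 to 9 of the 12 SAL-LPS libraries were at 0. In the PFC the order was the other way round for Gbp3 (0 counts in SAL-LPS and 29 in SAL-SAL, at least 9.56-fold lower, adjusted p = 0.103) and Psmb9 (0 and 17, at least 5.61-fold lower, adjusted p = 0.139). Both had counts in 2 of 10 SAL-SAL libraries, and library 9-4, which is high in astrocyte markers, was the highest for each. Irf3 in the PFC lay between 0 and 32.66 (median 8.02) in SAL-SAL and between 6.63 and 116.4 (median 29.3) in SAL-LPS (log2FC 1.69 ± 0.54, adjusted p = 0.141). In the striatum Psmb8 had 0 counts in SAL-LPS and 11 in SAL-SAL (at least 4.69-fold lower, adjusted p = 0.108), and it passed the count filter there only through SAL-SAL. Oas1a in the striatum had a median of 0.0488 (0 to 0.755) in SAL-SAL and 0.344 (0 to 1.73) in SAL-LPS (log2FC 2.14 ± 0.91, adjusted p = 0.318). Nlrc5, the transactivator of MHC class I genes, had 0.16 (0 to 1.75) and 0.726 (0.278 to 4.93) there (1.38 ± 0.61, adjusted p = 0.345), and without litter 10 its log2FC was 0.86 (adjusted p = 0.628).

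**Figure D2:**
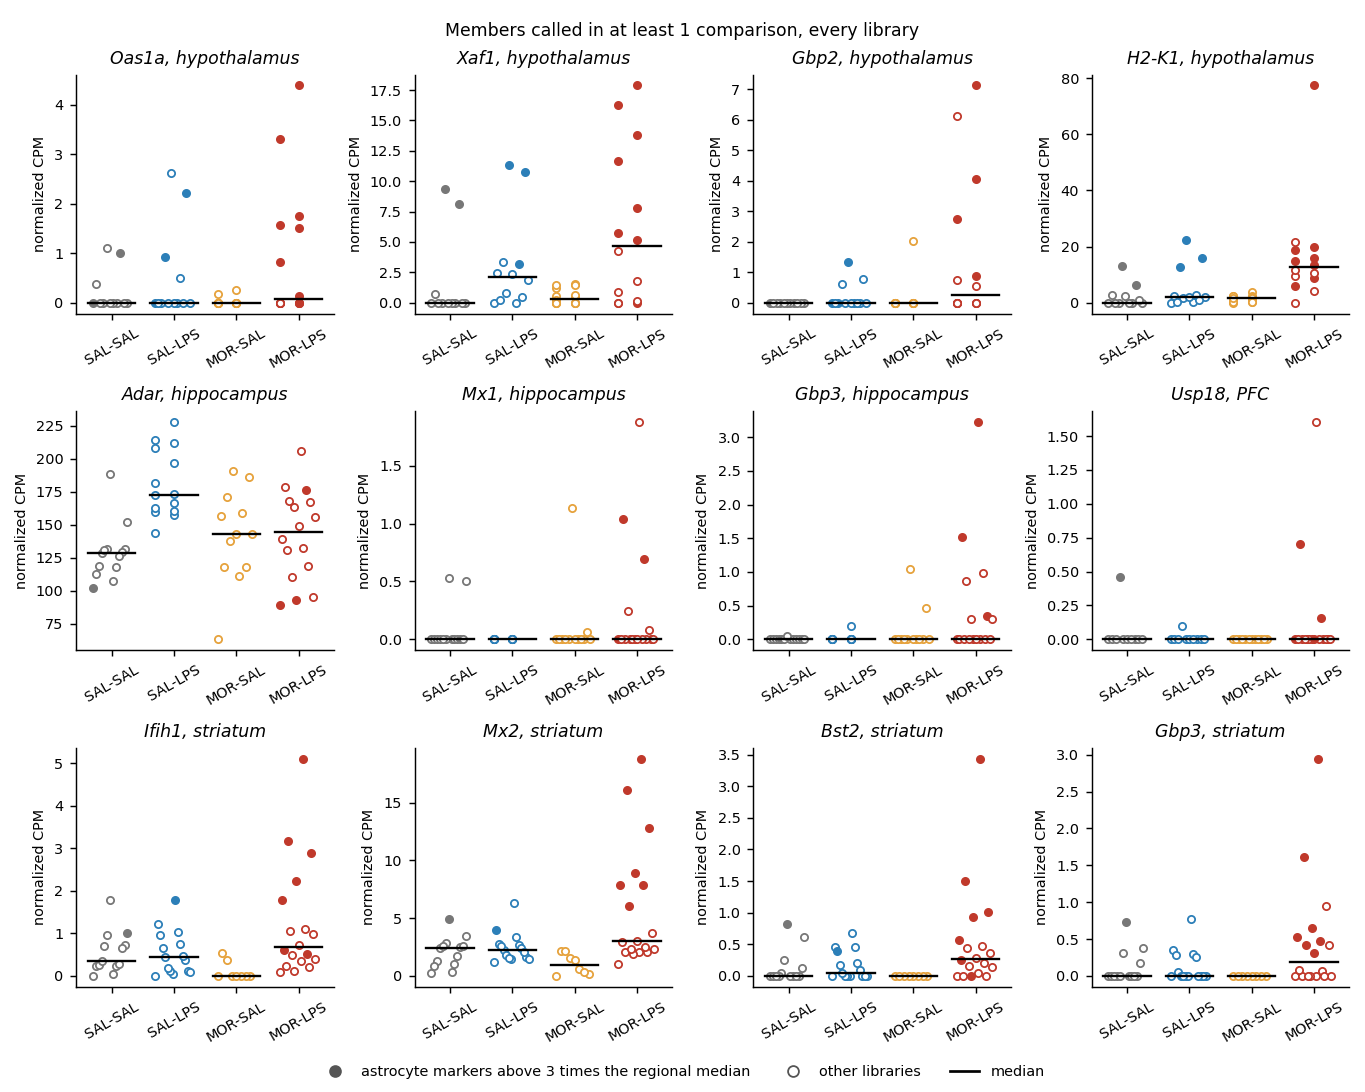
Normalised CPM (y, linear) in single libraries (points) of the 4 conditions (x) for 12 of the called member and region pairs (Nlrc5 in the striatum is given in the text), with bars at medians and filled points for libraries high in astrocyte markers. H2-K1 reached 77.43 in a MOR-LPS hypothalamic library and at most 3.924 in MOR-SAL, and Adar shifted from a median of 128.2 to 172.6 between SAL-SAL and SAL-LPS in the hippocampus.

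In morphine-exposed animals, more members passed after LPS, and all of them were higher: 4 in the hypothalamus (H2-K1, Xaf1, Gbp2 and Oas1a) and 5 in the striatum (Mx2, Bst2, Nlrc5, Ifih1 and Gbp3). Set against all genes, 4 of 40 compares with 6.27% in the hypothalamus and 5 of 38 with 1.39% in the striatum. In the hippocampus 0 of 37 were called against 0.467% of all genes, and in the PFC 0 of 38 against 0.0184%. At an unadjusted p under 0.05 edgeR had 15, 19, 10 and 6 members in the hypothalamus, striatum, hippocampus and PFC, and in each region all of these were higher. Of all genes, 20.5%, 17.8%, 14.3% and 13.2% did, which puts the PFC count near the background share. DESeq2 called 4 in the hypothalamus, of which H2-K1 and Xaf1 were shared, 11 in the striatum, which included all 5, and 0 in the hippocampus and the PFC, while it called 1269, 717, 49 and 43 of all genes in hypothalamus, striatum, hippocampus and PFC.

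The hypothalamic call with the smallest p was H2-K1, an MHC class I heavy chain that presents peptides to CD8 T cells. The 14 MOR-SAL libraries ranged from 0 to 3.924 normalised CPM (median 1.684) and the 14 MOR-LPS libraries from 0 to 77.43 (median 12.57). MOR-LPS libraries were mostly above all MOR-SAL libraries, and 1 library of each group was at 0. H2-K1 rose by a log2FC of 3.37 ± 0.65 (edgeR adjusted p = 0.00114). SAL-LPS libraries had a median of 1.974 (0 to 22.42) and SAL-SAL libraries a median of 0 (0 to 12.99). The close relative H2-D1 lay between 32.42 and 65.12 (median 47.42) in MOR-SAL and between 10.97 and 170.3 (median 66.23) in MOR-LPS (0.43, unadjusted p = 0.12, edgeR). Reads of these closely related class I genes may have been split or dropped in counting, so the division between H2-K1 and H2-D1 is uncertain.

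Xaf1, a pro-apoptotic interferon target, ranged from 0 to 1.57 (median 0.34) in MOR-SAL and from 0 to 17.89 (median 4.70) in MOR-LPS of the hypothalamus. The groups overlap near 0 and the MOR-LPS libraries extend far above. Xaf1 rose by 3.39 ± 0.83 (adjusted p = 0.0105, edgeR). Gbp2 was at 0 in 13 of 14 MOR-SAL libraries (highest 2.02) and in 7 of 14 MOR-LPS libraries (highest 7.13). It rose by 3.67 ± 1.15 (adjusted p = 0.0418, edgeR), was called in 8 of 17 fits that left out a litter, and ranged there from 3.32 to 6.33. Oas1a had 2 counts over all MOR-SAL libraries and 69 over all MOR-LPS libraries, a ratio of 35.5 with a counting interval of 9.46 to 299. It passed with an adjusted p of 0.048 (edgeR), with 7 of 14 MOR-LPS libraries at 0. The fitted fold changes of genes this scarce depend on the prior count of the fit.

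When the litter was a term, H2-K1 (3.25, adjusted p = 0.00216) and Xaf1 (3.36, adjusted p = 0.0305) were kept in the hypothalamus, and Gbp2 (adjusted p = 0.181) and Oas1a (adjusted p = 0.245) were not. H2-K1 and Xaf1 were also kept without the libraries that went against their labelled sex (2 calls, Gbp2 at 0.0892 and Oas1a at 0.119). Leaving out single litters gave 2 calls without litter 7, 12, 14, 15 or 16 and 8 without litter 13.

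In the striatum, Mx2, a relative of Mx1 that the annotation lists as a polymorphic pseudogene, ranged from 0 to 2.134 normalised CPM (median 0.953) in the 8 MOR-SAL libraries and from 1.02 to 18.8 (median 2.978) in the 18 MOR-LPS libraries. The groups overlap between 1.02 and 2.134. Mx2 rose by a log2FC of 2.32 ± 0.53 (edgeR adjusted p = 0.0197). Nlrc5 went from a median of 0.275 (0 to 2.696) to 1.99 (0.748 to 31.64) and rose by 3.07 ± 0.77 (adjusted p = 0.0323). Its lowest MOR-LPS library lay above all MOR-SAL libraries but library 15-0. Ifih1, the MDA5 sensor of long double-stranded RNA, was at 0 in 6 of 8 MOR-SAL libraries (highest 0.536) and lay between 0.0958 and 5.11 (median 0.672) in MOR-LPS. It was counted in every MOR-LPS library and rose by 3.13 ± 0.84 (adjusted p = 0.0453). Bst2, the tetherin that holds budding viruses at the cell surface, had 0 counts in MOR-SAL and 136 in MOR-LPS, at least 12.1-fold higher (adjusted p = 0.0269). Gbp3 had 0 and 108 counts, at least 9.6-fold higher (adjusted p = 0.0488). Neither was counted in any MOR-SAL library, and 4 and 7 of the 18 MOR-LPS libraries, respectively, were at 0.

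Adding the litter as a term, 0 of the 5 striatal members were called, with Mx2 the closest (2.42, adjusted p = 0.0524), Nlrc5 at 0.145, Ifih1 at 0.168, Bst2 at 0.195 and Gbp3 at 0.274, while 16 members had an unadjusted p under 0.05 in that edgeR fit. It called 30 of all genes, and the share of all genes at an unadjusted p under 0.05 was not computed for it. Leaving out litter 15 or litter 16 gave 0 calls, litter 12 or 14 gave 1, litter 18 gave 2, litter 1, 2, 3, 4 or 7 gave 3, and litter 6 gave 8. With DESeq2 the further calls were Ifit3, Oasl2, Tap1, Tap2, Trim25 and Xaf1.

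**Figure D3:**
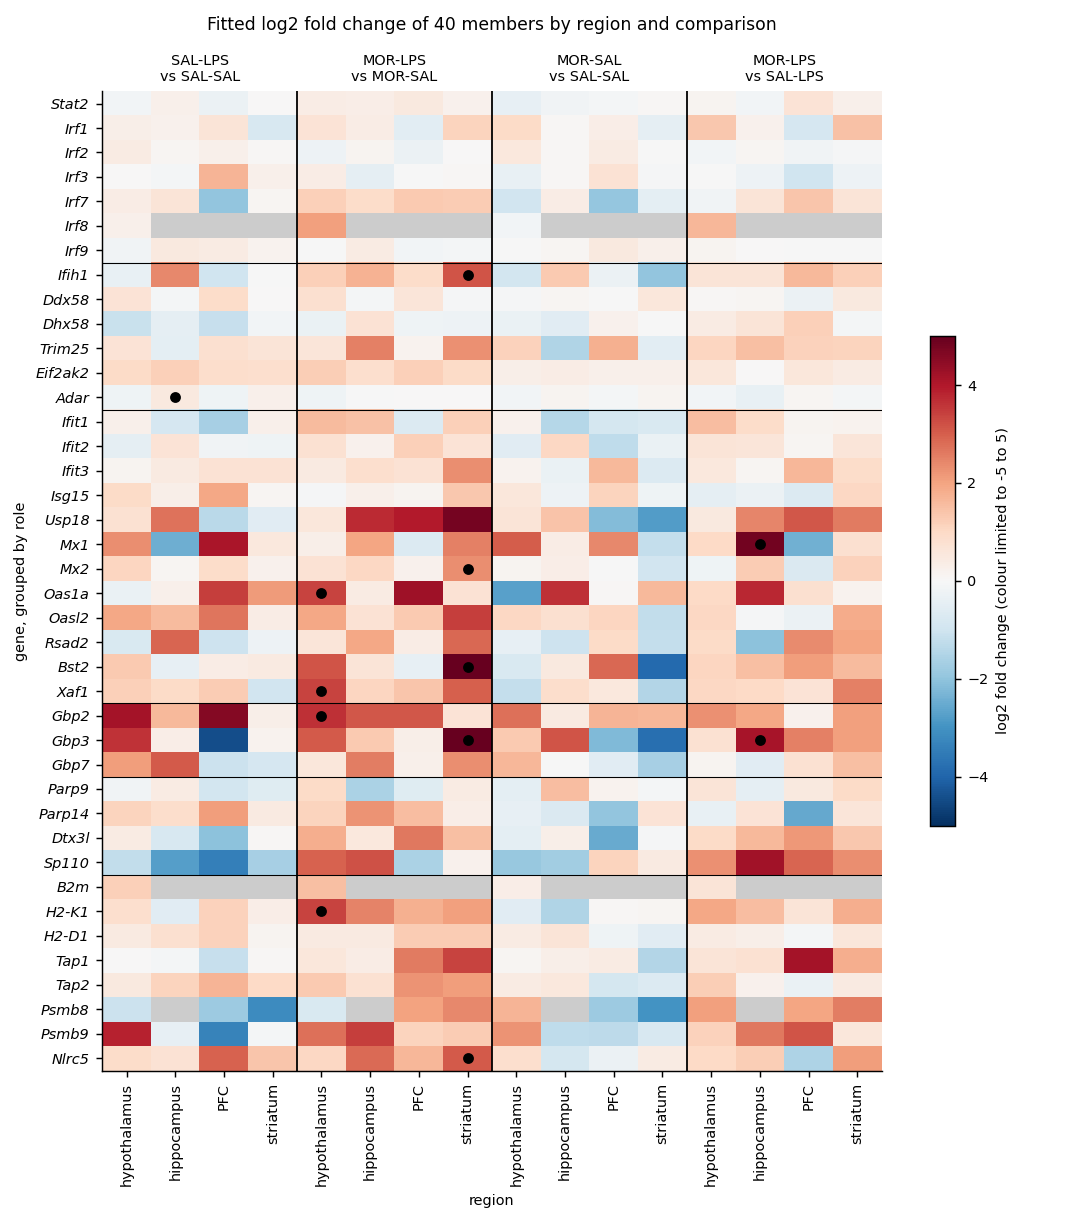
Fitted log2FC of each member (rows, ordered by role) in the 4 regions and 4 pairwise comparisons (columns), with a dot on called members, grey where a member was not tested, and colour limited to −5 to 5. In MOR-LPS vs. MOR-SAL 34 of 40, 33 of 37, 28 of 38 and 35 of 38 members were above 0 in hypothalamus, hippocampus, PFC and striatum.

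The median log2FC of the members in MOR-LPS vs. MOR-SAL was 0.89 for hypothalamus, 0.83 for hippocampus, 0.68 for PFC and 1.31 for striatum (1.27 with bounds), beside 0.003, 0.025, 0.061 and 0.108 over all genes. With the litter as a term the medians were 0.81, 1.32, 1.296 and 1.48. Members above 0 numbered 34 of 40, 33 of 37, 28 of 38 and 35 of 38, where 50.4%, 52.6%, 54.8% and 59.8% of all genes were above 0. By role in the striatum, the median was 2.42 for the antiviral effectors (2.32 with bounds), 2.33 for the guanylate-binding genes, 2.11 for antigen presentation (2.07 with bounds), 0.50 for RNA sensing and editing, 0.38 for the PARP and nuclear body genes and 0.14 for the signalling factors, and in the PFC that of the signalling factors was −0.07 (2 of 6 above 0). In the hypothalamus it was 3.06 for the guanylate-binding genes, 1.47 for the PARP and nuclear body genes, 1.18 for antigen presentation, 0.75 for the antiviral effectors, 0.70 for RNA sensing and editing and 0.37 for the signalling factors. Adar had −0.20, −0.004, 0.01 and 0.03 in hypothalamus, hippocampus, PFC and striatum, and Irf2 −0.24, 0.14, −0.31 and 0.02. H2-D1 had 0.43, 0.47, 1.26 and 1.27. None of these passed the test. Stat2, which all type I interferon signalling needs, had 0.37, 0.32, 0.49 and 0.21.

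Among the uncalled members with the smallest p in the hippocampus, Psmb9 had 0 counts in MOR-SAL and 22 in MOR-LPS (at least 4.38-fold higher, adjusted p = 0.0672, edgeR). It had 26 counts in the region, 50% of them in library 16-2, passed the count filter only through MOR-LPS, and without litter 16 its fitted log2FC went from 3.45 to 1.86 (adjusted p = 0.172). Hippocampal Nlrc5 had a median of 0.0331 (0 to 0.846) in MOR-SAL and 1.08 (0 to 10.3) in MOR-LPS (log2FC 2.85 ± 1.01, adjusted p = 0.148). Usp18 was at 0 in 10 of 12 and 13 of 16 libraries, with a highest value of 11.85 in library 12-2 (3.75 ± 1.35, adjusted p = 0.153), and without litter 12 its log2FC was 1.73 (adjusted p = 0.541). In the PFC the corresponding members were counted in 2 or 3 of 16 MOR-LPS libraries and in 0 of 12 MOR-SAL libraries: Usp18 with 24 counts (at least 5.99-fold higher, adjusted p = 0.0797), Oas1a with 77 (at least 19.2-fold higher, adjusted p = 0.128) and Psmb8 with 9 (at least 2.25-fold higher, adjusted p = 0.167). Psmb8 had 11 counts in the whole PFC (72.7% in library 12-0) and, like Usp18, passed the count filter only through MOR-LPS. Without litter 14 the fitted log2FC of Usp18 went from 3.96 to 2.37, and without litter 15 that of Oas1a from 4.23 to 2.56.

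Markers of glia moved with these values. In hypothalamic MOR-LPS vs. MOR-SAL, 5 of 5 astrocyte markers were higher and 4 were called (median log2FC 2.50), 5 of 5 oligodendrocyte markers were called (1.74), 7 of 8 microglial markers were higher and 3 were called (0.86), and 5 of 6 endothelial markers were higher with 1 called (0.12). In the striatum 4 of 4 tested astrocyte markers were higher and 3 were called (1.83), 5 of 5 oligodendrocyte markers were higher with 0 called (1.22), and 7 of 7 tested microglial markers were higher with 1 called (1.40). Gfap and P2ry12 were listed at 0 there. In the PFC 4 of 4 tested astrocyte, 5 of 5 oligodendrocyte and 6 of 7 tested microglial markers were higher (medians 1.63, 1.78 and 1.69, 0 called). The hippocampus had the same numbers of markers higher, with medians of 0.93, 0.76 and 0.85 and 0 called. The summed astrocyte level lay between 14.35 and 43.56 normalised CPM in hypothalamic MOR-SAL and between 15.72 and 720.3 in MOR-LPS, and between 15.11 and 40.35 and between 20.6 and 329.2 in the striatum. Neuronal markers had medians of 0.02 (1 of 7 called higher and 1 lower) and −0.03 (0 of 7 called), and their summed level was lower in the striatal MOR-LPS libraries high in astrocyte markers (2559 to 4307) than in most of the other 11 (3864 to 6085).

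In the striatum the summed level of the 12 antiviral effectors was 27.52 to 75.74 in the 7 MOR-LPS libraries high in astrocyte markers, 4.9 to 14.55 in the other 11 and 0 to 9.288 in MOR-SAL. The 2 sets of MOR-LPS libraries did not overlap. The single SAL-SAL and SAL-LPS libraries above the same threshold had 27.58 and 17.35, against at most 13.88 and 14.41 in the rest of their groups. In the hypothalamus the sum was 21.06 to 106.5 in the 8 MOR-LPS libraries high in astrocyte markers, 3.998 to 28.3 in the other 6 and 6.622 to 27.06 in MOR-SAL. For the antigen-presentation genes there, the corresponding ranges were 49.6 to 216.4, 34.28 to 170.3 and 41.33 to 76.06. Oas1a in the hypothalamus was at 0 in all 6 MOR-LPS libraries below the threshold. H2-K1 had a median of 15.39 (5.774 to 77.43) in the 8 libraries and 9.933 (0 to 21.53) in the other 6, and in SAL-LPS it was 12.77 to 22.42 in the 3 libraries above the threshold and 0 to 2.557 in the other 9. Striatal Mx2 had 6.085 to 18.8 in the 7 libraries and 1.02 to 3.714 in the other 11. In the PFC the antiviral sums of the MOR-LPS libraries overlapped (14.16 to 40.54 in 5 and 0 to 22.31 in the other 11). The hippocampal SAL-SAL library above the threshold was below the other 12 (1.41 against 2.796 to 14.4), and the sums of the signalling factors in hippocampal MOR-LPS overlapped (187.8 to 229.7 in 3 and 147.9 to 257.9 in the other 13).

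**Figure D4:**
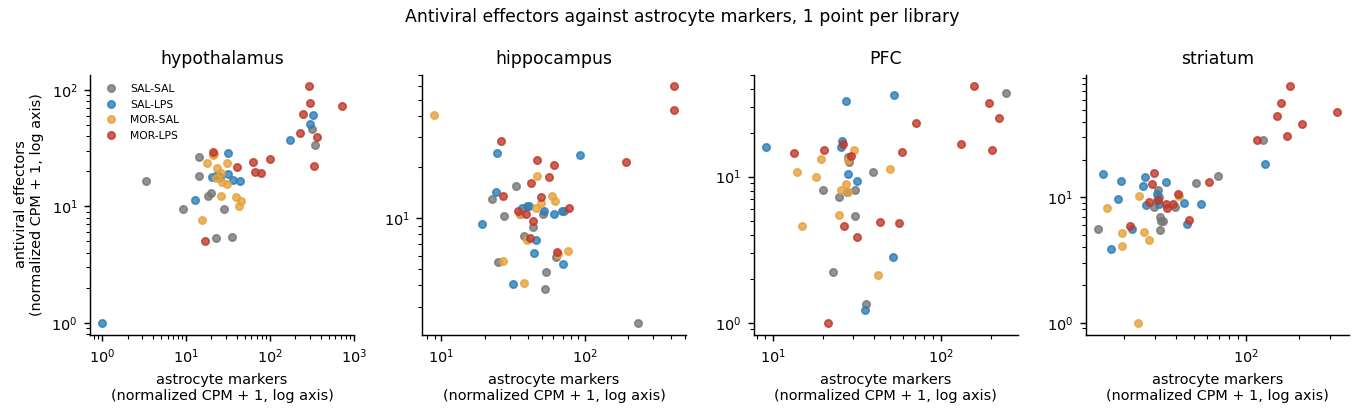
Summed normalised CPM + 1 of the 12 antiviral effectors (y, log scale) against that of the astrocyte markers (x, log scale) in single libraries, 1 panel per region, coloured by condition. In the striatum the 7 MOR-LPS libraries above the astrocyte threshold have sums of 27.52 to 75.74 and the other 11 of 4.9 to 14.55.

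Without the libraries high in astrocyte markers, 0 members were called in MOR-LPS vs. MOR-SAL in either region (edgeR, 2 of 38 in the hypothalamus and 8 of 37 in the striatum at an unadjusted p under 0.05). Of all genes, 60 and 3 were called in these fits, against 1809 and 325 with all libraries. The share of all genes at an unadjusted p under 0.05 was not computed for them. The members' median was then 0.06 in the hypothalamus (21 of 38 above 0), 0.71 in the striatum (28 of 37), 0.37 in the hippocampus (30 of 36) and 0.13 in the PFC (19 of 37). H2-K1 had 2.48 (adjusted p = 0.178), Xaf1 1.57 (0.604), Gbp2 2.16 (0.549) and Oas1a −0.82 (0.691). In the striatum Mx2 had 1.10 (adjusted p = 0.327), Nlrc5 1.31 (0.428) and Ifih1 1.93 (0.36). The fitted values of Bst2 and Gbp3, which depend on the prior count, went from 5.91 to 5.05 (adjusted p = 0.184) and from 5.96 to 4.52 (0.246). This leaves 6 of 14 and 11 of 18 MOR-LPS libraries. With astrocyte and oligodendrocyte marker levels as covariates, 0 members were called in either region, with H2-K1 at 2.08 (adjusted p = 0.0557), and with microglial and endothelial marker levels 1 was called in the hypothalamus (H2-K1, 2.64, adjusted p = 0.0154) and 0 in the striatum. Whether glial nuclei in the sorted samples account for the levels of these genes was not tested.

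**Figure D5:**
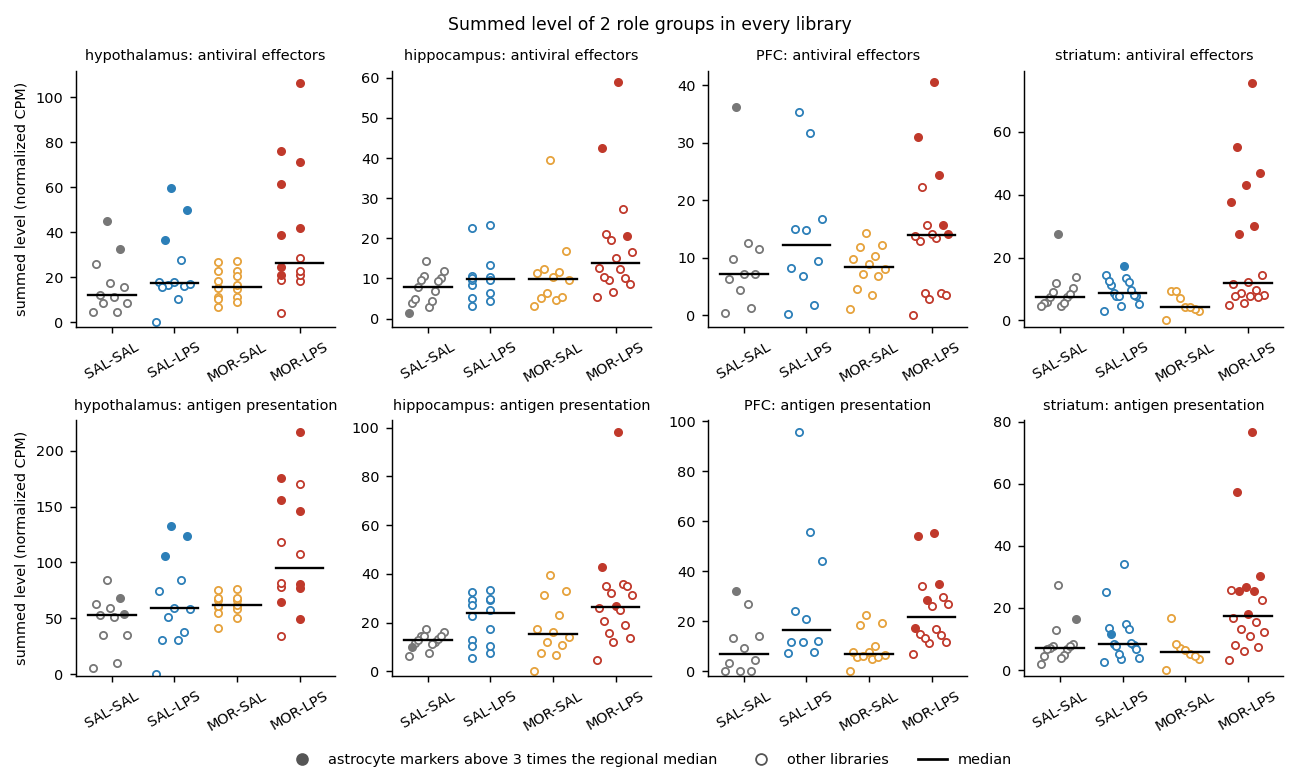
Summed normalised CPM (y, linear) of the antiviral effectors (top) and the antigen-presentation genes (bottom) in single libraries (points) of the 4 conditions (x) in each region, with bars at medians and filled points for libraries high in astrocyte markers. The antiviral effectors in striatal MOR-LPS libraries divide into values of 4.9 to 14.55 and of 27.52 to 75.74.

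For morphine exposure alone (MOR-SAL vs. SAL-SAL), no member passed the test. Of all genes, 1.44% were called in the hypothalamus and 0% in each of the other regions, and members numbered 0 of 40, 0 of 37, 0 of 38 and 0 of 38 with edgeR and with DESeq2. At an unadjusted p under 0.05, edgeR had 5, 2, 3 and 5 members in hypothalamus, hippocampus, PFC and striatum, of which 4, 2, 1 and 0 were higher, where 17.3%, 10.3% and 10.1% of all genes did in the first 3 regions and 2683 of 23426 in the striatum. The members' median was 0.12, 0.15 (0.22 with bounds), 0.05 (0.11 with bounds) and −0.46 (−0.38 with bounds), beside 0.07, −0.01, 0.01 and −0.07 over all genes, and 11 of 38 were above 0 in the striatum. In the striatum 0 of 4 astrocyte, 0 of 5 oligodendrocyte and 0 of 7 microglial markers tested were higher in MOR-SAL (medians −0.85, −0.55 and −0.71, 0 called), and with astrocyte and oligodendrocyte covariates the members' median was −0.05 (18 of 38 above 0). In the PFC 0 of 4, 0 of 5 and 0 of 7 of these markers were higher (medians −1.15, −1.55 and −1.04, 0 called). In the hypothalamus 0 of 5, 0 of 5 and 3 of 8 were higher (−1.06, −1.64 and −0.17, 1 oligodendrocyte marker called lower). In the hippocampus 1 of 4, 4 of 5 and 4 of 7 were higher (−0.35, 0.16 and 0.05). Without the libraries high in astrocyte markers the members' median was 0.63 for hypothalamus, 0.17 for hippocampus, 0.26 for PFC and −0.35 for striatum, and with the litter as a correlated block −0.01, 0.50, −0.05 and −0.29. In the hypothalamus Irf2 lay between 12.86 and 40.18 (median 23.8) in SAL-SAL and between 25.48 and 49.81 (median 36.2) in MOR-SAL (log2FC 0.53 ± 0.22, adjusted p = 0.183). Oas1a had 15 counts in SAL-SAL and 2 in MOR-SAL (ratio 0.0775, counting interval 0.0086 to 0.333, adjusted p = 0.128), and its fitted log2FC went from −2.70 to −0.91 in the smallest of 17 fits that left out a litter (highest adjusted p = 0.671, without litter 1), and 1 of these fits called it lower (−4.06 without litter 6, adjusted p = 0.0399). Mx1, whose allele in C57BL/6 mice is known to make no functional antiviral protein, had 3 and 50 (ratio 9.69, 3.13 to 48.6, adjusted p = 0.186), and with the litter as a correlated block its log2FC was −0.038. In the hippocampus Gbp3 had 1 count in SAL-SAL and 11 in MOR-SAL (ratio 16.1, 2.34 to 692, adjusted p = 0.147), with its fitted log2FC going from 3.16 to 1.06 without litter 17 (adjusted p = 0.893), Oas1a had a highest value of 0.419 and 2.62 (adjusted p = 0.224), its only MOR-SAL library with counts being 17-4, and Ifit2, which binds viral RNA, had medians of 1.38 and 2.94 (1.05 ± 0.55, adjusted p = 0.527).

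The striatal and PFC members with the smallest p were mostly lower in MOR-SAL. In the striatum Bst2 and Gbp3 each had 20 counts in SAL-SAL and 0 in MOR-SAL (at least 2.82-fold lower, adjusted p = 0.29 and 0.354), and Psmb8 had 11 and 0 (at least 1.55-fold lower, adjusted p = 0.338), having passed the count filter only through SAL-SAL. Library 9-4 was the highest SAL-SAL library for all 3, and 8, 9 and 11 of the 13 SAL-SAL libraries were at 0. In the PFC Usp18 had 5 and 0 counts (at least 2.29-fold lower, adjusted p = 0.259), all from library 9-4. Gbp3 there had a highest value of 2.01 in SAL-SAL and 0.548 in MOR-SAL (−2.20 ± 1.02, adjusted p = 0.416), and Bst2 had 0.822 and 1.23 (2.86 ± 1.40, adjusted p = 0.469). These values were at or near the limit of detection at this depth.

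Between the LPS-treated groups (MOR-LPS vs. SAL-LPS), 2 of 37 members passed in the hippocampus, where 2.73% of all genes did, and both were higher in MOR-LPS. Mx1 was at 0 in 14 of 14 SAL-LPS libraries and in 11 of 16 MOR-LPS libraries, with a highest value of 1.88 in library 8-3. With 54 counts against 0 it was at least 15.6-fold higher (edgeR adjusted p = 0.0189), and it was kept in each of the 18 fits that left out a litter and without the libraries high in astrocyte markers (adjusted p = 0.0282). Gbp3 had 2 counts in SAL-LPS and 134 in MOR-LPS (ratio 58, counting interval 15.8 to 484, adjusted p = 0.0284). Library 15-3, high in astrocyte markers, reached 3.226 and held 62.8% of the hippocampal counts of this gene, 9 of 16 MOR-LPS libraries were at 0, and without the libraries high in astrocyte markers its log2FC went from 4.13 to 3.03 (adjusted p = 0.0978). With the litter as a correlated block, the adjusted p was 0.242 for Mx1 and 0.12 for Gbp3, and the fit called only Adar, lower in MOR-LPS. Without litter 3, 10 or 15 there was 1 call, without litter 17 there were 3, without litter 12 there were 4 and without litter 2 there were 5. DESeq2 called 0, giving Gbp3 an adjusted p of 0.335 and no adjusted p for Mx1. Of the glial markers, 4 of 4 tested astrocyte, 5 of 5 oligodendrocyte (1 called) and 6 of 7 tested microglial markers (1 called) were higher in the same comparison, with medians of 0.98, 1.35 and 1.40.

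In the other regions, 0 of 40 members were called in the hypothalamus (1.03% of all genes), 0 of 38 in the PFC (0.0046%) and 0 of 38 in the striatum (0%). At an unadjusted p under 0.05 edgeR had 4, 9 and 17 members there (13.9%, 13% and 11.2% of all genes), of which 4, 8 and 17 were higher in MOR-LPS. The hippocampus had 6 of 37 (5 higher), near its share of 17% of all genes. DESeq2 called 0, 0 and 2 members in hypothalamus, PFC and striatum, and 70, 23 and 98 of all genes. The members' median was 0.66, 0.60 and 0.99, and 0.64 in the hippocampus, beside 0.01, 0.06, 0.03 and 0 over all genes. Without the libraries high in astrocyte markers these medians were 0.08, 0.05 and 0.08, and 0.17 in the hippocampus, and with the litter as a correlated block the hypothalamic median was 0.155 (24 of 40 above 0). Every tested astrocyte and oligodendrocyte marker was higher in MOR-LPS in these 3 regions with 0 called (astrocyte medians 1.396, 1.304 and 1.331), as were 8 of 8, 5 of 7 and 7 of 7 microglial markers. In the striatum Xaf1 ranged from 0.451 to 2.958 (median 0.943) in SAL-LPS and from 0.204 to 21.29 (median 1.45) in MOR-LPS (2.51 ± 0.61, edgeR adjusted p = 0.0721, DESeq2 0.00749). Without the libraries high in astrocyte markers its log2FC was −0.10, and without litter 6 or 12 it was called. Nlrc5 had medians of 0.726 and 1.99 (2.10 ± 0.55, edgeR adjusted p = 0.0784, DESeq2 0.0185). It was called in 1 of 18 fits that left out a litter (litter 12), and without litter 14 its log2FC was 1.38 (adjusted p = 0.236). Psmb8 had 0 counts in SAL-LPS and 9 in MOR-LPS (at least 2.42-fold higher, adjusted p = 0.115), and without litter 16 its fitted log2FC went from 2.55 to 1.46 (adjusted p = 0.588).

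In the hypothalamus, H2-K1 had a median of 1.974 in SAL-LPS and 12.57 in MOR-LPS (log2FC 1.94 ± 0.67, adjusted p = 0.12), Irf1, which activates class I and interferon genes, had 4.61 and 10.7 (1.36 ± 0.57, adjusted p = 0.226) and Ifit1, which binds uncapped viral RNA, had 1.44 and 4.33 (1.56 ± 0.66, adjusted p = 0.235). The groups overlapped for all 3. In the PFC Psmb9 had 0 counts in SAL-LPS and 22 in MOR-LPS (at least 3.95-fold higher, adjusted p = 0.142), the peptide transporter gene Tap1 was at 0 in 8 of 10 and 5 of 16 libraries (4.16 ± 1.58, adjusted p = 0.195), and Stat2 had medians of 14.95 (5.81 to 39.4) and 23.65 (18.1 to 57.6), a log2FC of 0.69 ± 0.26 (adjusted p = 0.198).

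Whether the response to LPS itself differed between exposures was tested as an interaction, the MOR-LPS vs. MOR-SAL difference minus the SAL-LPS vs. SAL-SAL difference. It passed for 1 of 37 members in the hippocampus (2.35% of all genes), Mx1, and for 1 of 38 in the PFC (1.78%), Usp18. It passed for 0 of 40 in the hypothalamus (3.8%) and 0 of 38 in the striatum (0.00854%), where edgeR had 4 and 11 members at an unadjusted p under 0.05 (15.6% and 14.8% of all genes). DESeq2 called 0 members in the hypothalamus, beside 383 of all genes, and 1 in the striatum. The percentages given here are those of edgeR and are not the background of the DESeq2 calls. The calls of the previous comparisons in the hypothalamus and striatum are therefore not shown to differ between exposures. The members' median interaction was 0.33, 0.16, 0.31 and 1.40 in hypothalamus, hippocampus, PFC and striatum, beside −0.06, 0.01, 0.05 and 0.12 over all genes. In the same contrast 5 of 5 astrocyte (2 called) and 5 of 5 oligodendrocyte markers (5 called) were higher in the hypothalamus. In the striatum 4 of 4 and 5 of 5 were higher, with 0 called. Hippocampal Mx1 was counted in 2 of 13 SAL-SAL, 0 of 14 SAL-LPS, 2 of 12 MOR-SAL and 5 of 16 MOR-LPS libraries (log2 difference 4.43 ± 1.29, adjusted p = 0.0496). With the litter as a term it had 3.07 (adjusted p = 0.762), without the libraries against their labelled sex an adjusted p of 0.0878, and it was kept in 3 of 18 fits that left out a litter, over which its value ran from 1.59 (without litter 9, adjusted p = 1) to 6.65. The fit without litter 12 called 3 members and that without litter 2 called 2. PFC Usp18 was counted in 1 of 10, 1 of 10, 0 of 12 and 3 of 16 libraries in the same order (5.30 ± 1.44, adjusted p = 0.0409). The fit with the litter as a term gave 3.61 (adjusted p = 0.949), it was kept in 5 of 17 fits that left out a litter, and without the libraries high in astrocyte markers it had 2.51 (adjusted p = 1). Of the 30 PFC counts of Usp18, 24 were in MOR-LPS and 50% in library 14-0, so it passed the count filter only through the group where it is high. The interaction of these genes rests on 9 and 5 libraries with a count, and its fitted size depends on the prior count.

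The difference between females and males in the response to LPS passed for 0 members in any region, where 0.152%, 0.707%, 0% and 0% of all genes passed in hypothalamus, hippocampus, PFC and striatum. At an unadjusted p under 0.05 edgeR had 7, 8, 5 and 2 members (10.8%, 12.2%, 10.2% and 7.52% of all genes). For some scarce members this fit gave a large difference with an unadjusted p near the maximum. Examples are Oas1a in the PFC (5.70, edgeR p = 0.9997) and Psmb9 in the hypothalamus (4.16, edgeR p = 0.9997). The test could not decide on such members, so their lack of a call does not show equal responses in the sexes. Of the 8 MOR-LPS animals with a library high in astrocyte markers, 6 were female. The response to LPS averaged over exposures differed between the 4 regions for 0 of the 37 members tested in all of them (limma-voom with the animal as a block), where 0.0924% of 19478 genes passed. The smallest p among members was that of H2-D1 (unadjusted p = 0.00583, adjusted p = 0.331), with responses of 0.30, 0.65, 2.21 and 0.66 in hypothalamus, hippocampus, PFC and striatum, and 4 members had an unadjusted p under 0.05 (8.32% of all genes).

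A list of 49 other genes of the same pathways was counted beside the members, of which 48, 40, 42 and 42 were tested in hypothalamus, hippocampus, PFC and striatum. In MOR-LPS vs. MOR-SAL, Cxcl10, Ifi27, Ifi44 and Ifitm3 rose in the hypothalamus (4 of 48, beside 6.27% of all genes), Sp100 in the hippocampus (1 of 40, beside 0.467%), and Ifitm3, Irgm1 and Sp100 in the striatum (3 of 42, beside 1.39%). The calls of these other genes were not recomputed with the litter or with markers of glia. The log2FC of the chemokine gene Cxcl10 was 4.62 ± 1.26 (adjusted p = 0.0221, edgeR) and Ifitm3, which blocks viral entry, had 4.07 ± 0.98 (0.00881) in the hypothalamus. In SAL-LPS vs. SAL-SAL, 2 of 40 were higher in the hippocampus (Trim21 and Zbp1, beside 2.55%). In MOR-LPS vs. SAL-LPS, 3 of 40 were higher there (Ifi44, Oas3 and Trim30a, beside 2.73%). In MOR-SAL vs. SAL-SAL, Ifi44 was lower in the hypothalamus (log2FC −3.93 ± 0.94, adjusted p = 0.0225, 1 of 48 beside 1.44%). The interaction passed for Ifi44 in the hypothalamus (5.83, beside 3.8% of all genes) and for Sp100 in the hippocampus (8.11, beside 2.35%) and PFC (6.81, beside 1.78%).

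For several members, exons on the opposite strand belong to another gene, and strand use in counting is not given in the sources used here. These are Irf1, Irf3, Irf7, Dhx58, Eif2ak2, Adar, Usp18, Gbp2, Parp9, Dtx3l, Sp110, Tap1, Tap2, Psmb8, Psmb9 and Nlrc5, and without strand their reads and those of the overlapping gene cannot be told apart. Some members are related genes: Gbp2, Gbp3 and Gbp7, Oas1a and its relatives, and the class I genes H2-K1 and H2-D1. How far they share sequence was not measured, and how reads from any shared stretches were divided is uncertain.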

How the data were processed

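Nuclear RNA of sorted NeuN-positive nuclei was sequenced from 4 brain regions, and the authors deposited raw read counts per gene in 1 table per region. Per the submitters' processing notes, the tools were Trim Galore 0.6.7, STAR 2.7.10a, HTSeq 0.12.4 and DESeq2 1.40.2 and the build was mm10. Whether counting used strand is not given in the sources used here. CPM tables deposited for the same libraries were not used. In each region, genes with a total count above 10 were kept and fitted with edgeR 4.0.16 (R 4.3.3; TMM normalisation, quasi-likelihood test) with the 4 conditions and sex as terms. Adjustment followed Benjamini and Hochberg over every gene tested in a region, and an adjusted p under 0.05 was called. Levels are normalised CPM, and errors of fold changes are SEs. Medians of members were also computed with members at 0 counts in 1 group set to the bound that 3 counts over the group give, and the intervals of count ratios cover counting error only. The difference in LPS response between regions was fitted with limma 3.58.1. The scripts were tested on simulated data.

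Conditions came from the sample labels, and the litter and animal from the replicate number there (litter, then animal). The study's supplement describes the numbers in this way, and by them litters are shared between challenges but not between exposures. The study's methods state more litters than these numbers give, which was not resolved, so fits with the litter rest on the numbers in the labels. The mean correlation of deviations from the group means was 0.00363, 0.00523, −0.00604 and 0.0706 within litters in hypothalamus, hippocampus, PFC and striatum, and 0.0117, 0.0135, −0.000897 and −0.00726 between litters. The alternatives were DESeq2 1.42.0, its size factors, other count filters, the litter as a block, covariates of cell type markers, and leaving out low-depth libraries, libraries against their labelled sex, libraries high in astrocyte markers or 1 litter at a time. Those on astrocyte markers were added after seeing the data. No pair of libraries was identical. Members given in full were those called, and otherwise the 3 with the smallest p in each region and pairwise comparison. The members and lists were chosen with earlier results of these data known.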

Additional observations from a re-analysis of the deposited data

Results flagged for a closer look

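Only the PFC SAL-SAL, PFC SAL-LPS and striatal MOR-SAL groups, of 8 or 10 libraries, were tested for a library far from the others. Of 23 tests over role sums and called members, 7 flagged a library, where chance flags about 1 in 20 independent tests. These tests are not independent, because they share libraries and some sums contain a tested member. In the PFC, SAL-LPS library 1-4 had a summed level of 76.13 normalised CPM for the PARP and nuclear body genes (group median 2.019, next library 4.342). Usp18 in the PFC was at 0.09614 in SAL-LPS library 9-1 and at 0.4565 in SAL-SAL library 9-4, and at 0 in the other libraries of each group. Where all but 1 library are at 0, any counted library stands apart, so the rate of 1 in 20 does not apply to Usp18. In the striatum, MOR-SAL library 15-0 had a sum of 0 for the antiviral effectors (median 4.235, next 3.094) and a level of 2.696 for Nlrc5 (median 0.2747, next 0.7121). MOR-SAL library 12-1 of the striatum had a sum of 2.592 for the guanylate-binding proteins (median 0.223, next 0.8308) and of 0 for antigen presentation (median 5.84, next 3.676).

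The interaction of exposure and LPS passed the edgeR test for Mx1 in the hippocampus (log2 difference 4.432, adjusted p = 0.0496) and Usp18 in the PFC (5.299, adjusted p = 0.0409). With the litter as a term the adjusted p was 0.762 and 0.949, and neither was called by DESeq2 or after filterByExpr. Usp18 passed the count filter in the PFC only through MOR-LPS, the group where it is high, so its test is no independent evidence of a difference.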

How the results depend on the processing

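Of 198 recomputed counts of called members, 163 stayed within 1.5 times the reported count and 35 did not. Most of these comparisons had 0 calls as reported, and 0 against 0 was taken as unchanged, so the 163 do not show that calls are stable. In the comparisons with a reported call, more recomputed counts moved than stayed. Of 436 recomputed values of named genes 368 kept their direction and side of the threshold, 60 lost the call, 2 gained it and 6 reversed. Most of the named values were uncalled as reported. In MOR-LPS vs. MOR-SAL, the 4 hypothalamic calls became 2 with filterByExpr, 2 without libraries against their labelled sex, 2 with the litter as a block (replicate block), 1 with microglial and endothelial covariates, and 0 with astrocyte and oligodendrocyte covariates or without libraries high in astrocyte markers (2 to 8 leaving out a litter). The 5 striatal calls became 11 with DESeq2, 3 with no filter, and 0 with the litter block, with either pair of covariates and without libraries high in astrocyte markers (0 to 8 leaving out a litter). The hippocampal call in SAL-LPS vs. SAL-SAL became 0 with filterByExpr and with the litter block (0 to 1). The 2 hippocampal calls in MOR-LPS vs. SAL-LPS became 0 with DESeq2 and filterByExpr. They became 1, Mx1, with microglial and endothelial covariates and without libraries high in astrocyte markers (1 to 5 leaving out a litter). With the litter block neither was kept, and Adar was called in their place, lower in MOR-LPS. The hippocampal interaction call became 2 without low-depth libraries and 0 with DESeq2, filterByExpr, the litter block, astrocyte and oligodendrocyte covariates or without libraries high in astrocyte markers (0 to 3). Without libraries against their labelled sex the count stayed at 1, but Mx1 was lost and Sp110 was called in its place. The PFC interaction call became 0 with DESeq2, filterByExpr, the litter block, either pair of covariates, or without low-depth libraries, libraries against their labelled sex or libraries high in astrocyte markers (0 to 1). In the striatum, DESeq2 called 2 in MOR-LPS vs. SAL-LPS (0 to 2 leaving out a litter) and 1 in the interaction (0 to 1), and in the hypothalamus leaving out a litter gave 0 to 1 in MOR-SAL vs. SAL-SAL and in the interaction. The values that reversed were Oas1a in hypothalamic MOR-LPS vs. MOR-SAL (−0.82) and Usp18 in PFC MOR-SAL vs. SAL-SAL (0.02) without libraries high in astrocyte markers, the latter also without litter 9 (−2.51 to 0.029 leaving out a litter), Mx1 in hypothalamic MOR-SAL vs. SAL-SAL with the litter block (−0.038), Oas1a in hippocampal MOR-SAL vs. SAL-SAL without litter 17 (−2.64 to 4.33 leaving out a litter), Gbp3 in PFC MOR-SAL vs. SAL-SAL with microglial and endothelial covariates (0.071), and Xaf1 in striatal MOR-LPS vs. SAL-LPS with astrocyte and oligodendrocyte covariates (−0.102) and without libraries high in astrocyte markers (−0.095). Filters and left-out libraries reduce the genes or samples tested, and the cause of the other changes was not tested. No litter spans exposures, so there the litter was a correlated block in limma-voom.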
